A study of Mus musculus with 9 samples.

Results

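Ermn, which encodes the cytoskeletal protein ermin (juxtanodin) of oligodendrocytes, was followed in the newborn mouse cortex beside 7 genes of the oligodendrocyte lineage, Olig1, Olig2, Sox10, Pdgfra, Cspg4, Cnp and Mbp. These 8 genes were picked by symbol from the 24624 genes of a bulk RNA-seq table. Ermn was selected on its measured fall in Fezf2-/- cortices, so its values below are a description and carry no test, whereas the other 7 are known genes of the lineage, listed with earlier results of these libraries known. RNA was taken from both cortical hemispheres of P0 pups bred from Fezf2+/- and Fezf2+/-; Fezf2-EnR parents, with 1 mouse in each library. There were 3 Fezf2+/+ libraries (bc201 and bc202 of litter m1, bc203 of litter m2), 4 Fezf2-/- libraries (bc205 and bc206 of litter m1, bc204 and bc207 of litter m3) and 2 Fezf2-/-; Fezf2-EnR libraries (bc208 of litter m3, bc209 of litter m2). The null allele carries a human placental alkaline phosphatase (PLAP) knock-in that is read from the Fezf2 promoter, and both mutant groups are homozygous for it. Fezf2-EnR is a BAC transgene in which Fezf2 regulatory DNA drives the FEZF2 DNA-binding domain joined to the engrailed repressor domain, and 1 transgenic line was used. No litter held all 3 groups.

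Oligodendrocytes arise from dividing precursors that carry the receptor PDGFRA and the proteoglycan NG2 (Cspg4) and depend on the transcription factors OLIG1, OLIG2 and SOX10. Precursors that stop dividing pass through a committed stage, marked by Gpr17 and Enpp6, before they make myelin proteins such as MBP, CNP, MAG and, late, MOG. Ermin is a late protein of this series in the adult brain, binds actin through a C-terminal stretch related to that of ezrin, radixin and moesin (the ERM proteins), and lies in the outer loops of the myelin sheath. In mice most cortical myelin forms after birth, so the lineage cells of a P0 cortex are chiefly precursors.

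Values are normalized expression, that is, reads of a gene over the size factor of the library. Whole reads recovered from these values gave 18716575 to 25127623 reads per library, and all 8 genes passed the filter for testing (a mean of at least 10 over the 9 libraries, 16197 genes). Fezf2 itself lay between 979 and 1232 in Fezf2+/+, between 193 and 242 in Fezf2-/- and at 907 and 1001 in Fezf2-/-; Fezf2-EnR, where reads of the gene and of the transgene were counted together. Group differences are log2 fold changes of log2(value + 1) from limma, and genes were called at a Benjamini-Hochberg adjusted p under 0.05 over all 16197 genes. Each p-value measures the spread between these mice only, and the group of 2 borrows its spread from the others.

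Ermn (ENSMUSG00000026830.9) lies on the minus strand at chr2:58045113-58052864 (GRCm38, GENCODE M21). Its normalized expression was 136, 124 and 159 in the Fezf2+/+ libraries bc201, bc202 and bc203. It was 37.2, 11.99, 16.7 and 25.8 in the Fezf2-/- libraries bc204, bc205, bc206 and bc207. The highest Fezf2-/- library stood below the lowest Fezf2+/+ library by a wide margin. It was 111 and 259 in the Fezf2-/-; Fezf2-EnR libraries bc208 and bc209. Both of these were above every Fezf2-/- library, and they lay on either side of the Fezf2+/+ range. The mean was 140 ± 17.8 for the Fezf2+/+ mice (SD, n = 3). For the Fezf2-/- mice it was 22.9 ± 11.1 (SD, n = 4), and with Fezf2-EnR added it was 185 ± 105 (SD, n = 2). On the log2 scale the difference was -2.67 in Fezf2-/- against Fezf2+/+, which is a 6.36-fold lower level, 2.95 in Fezf2-/-; Fezf2-EnR against Fezf2-/- and 0.28 in Fezf2-/-; Fezf2-EnR against Fezf2+/+. The comparisons share libraries with the one that chose the gene. In a bulk sample, fewer cells that make a transcript and less of it per cell cannot be told apart.

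The lowest Ermn value rested on 11 reads (library bc205, 95% exact Poisson interval 5.49 to 19.7 reads) and the highest on 237 (bc209, 208 to 269), and these intervals cover counting error only. The 2 Fezf2-/- libraries of litter m3 (37.2 and 25.8) were higher than the 2 of litter m1 (11.99 and 16.7), by 1.08 on the log2 scale. Within litter m1 the Fezf2-/- mice were lower than their Fezf2+/+ littermates by a log2 difference of -3.11, with 2 libraries on each side. Within litter m3 the Fezf2-/-; Fezf2-EnR library was higher than the mean of its 2 Fezf2-/- littermates by 1.80. Within litter m2 it was higher than its Fezf2+/+ littermate by 0.70, with 1 library on each side. The sign of the difference between Fezf2-/-; Fezf2-EnR and Fezf2+/+ rested on library bc209, since it was -0.33 without it and -0.19 with litter as a block. Exons of Ermn overlap those of Galnt5, on the other strand, by 237 bases, and strand use in counting is not given in the sources used here, so reads of the pair cannot be told apart. Galnt5 was not analysed here. Of 12963 genes averaging 50 or more, the fall of Ermn ranked 7, between that of RP23-79J21.3 (-2.68) and that of Ngfr (-2.60).

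**Figure D1:**
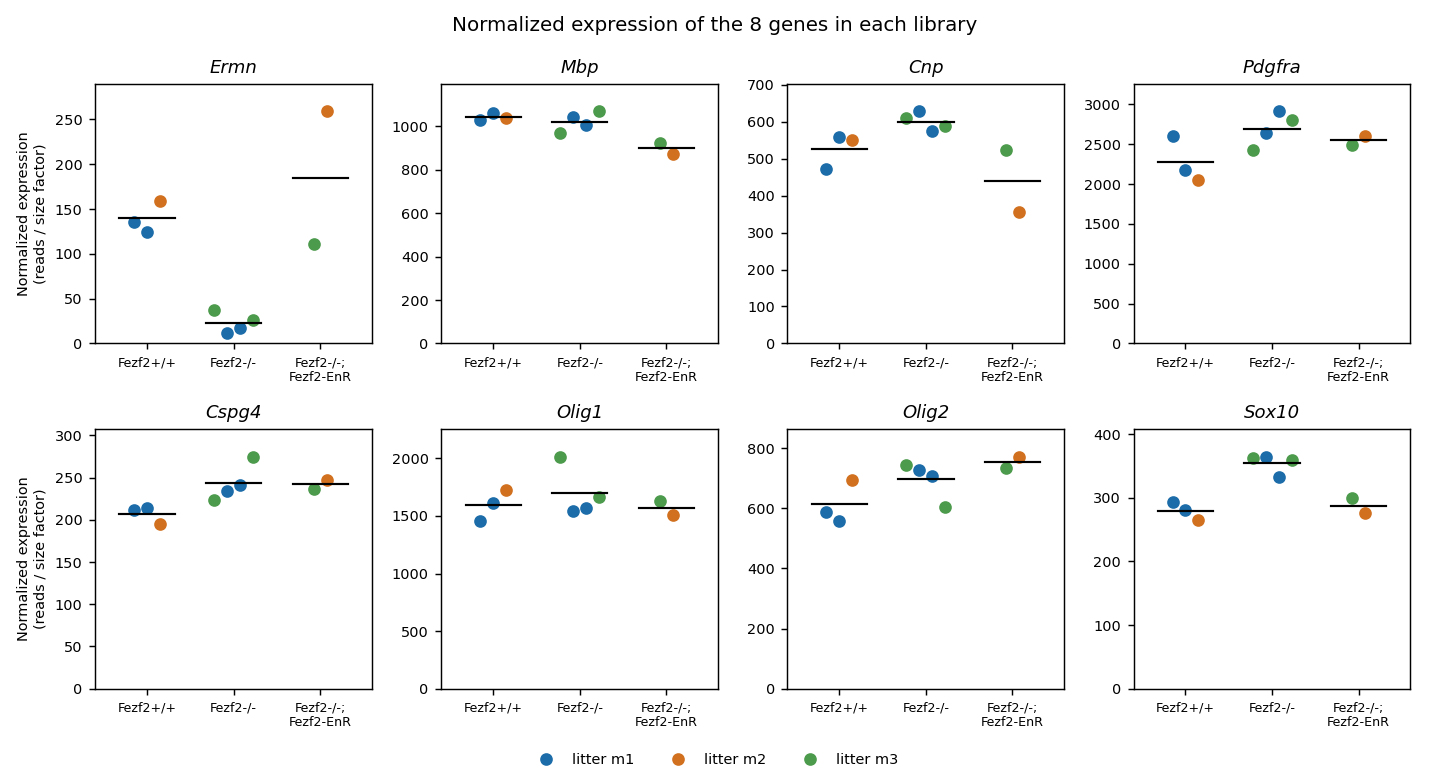
Normalized expression (reads divided by size factor, linear axis from 0) of the 8 genes in the 9 libraries, with 1 point for each mouse, colours for the 3 litters and a black line at each group mean. Ermn lies between 11.99 and 37.2 in Fezf2-/- against 124 to 159 in Fezf2+/+, while Mbp lies between 969 and 1069 in Fezf2-/- against 1031 to 1064 in Fezf2+/+.

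Set against the other 7 genes in the same library, Ermn stood at 20.5, 19.2 and 24.4 per 1000 of their summed normalized expression in the Fezf2+/+ libraries. In the Fezf2-/- libraries bc204, bc205, bc206 and bc207 this was 5.05, 1.67, 2.27 and 3.50 per 1000. In the Fezf2-/-; Fezf2-EnR libraries bc208 and bc209 it was 16.2 and 39.0 per 1000. The summed level of the 7 genes itself ran from 6471 to 6651 in Fezf2+/+, from 7185 to 7361 in Fezf2-/- and from 6641 to 6841 in Fezf2-/-; Fezf2-EnR. The summed level was thus highest in the group in which Ermn was lowest. The sum weighs abundant genes most, above all Pdgfra (mean 2277 in Fezf2+/+ and 2696 in Fezf2-/-). Mean Mbp was not highest in Fezf2-/- (1022, against 1044 in Fezf2+/+). Nor was mean Olig2 (697, against 753 in Fezf2-/-; Fezf2-EnR), while the means of the other lineage genes were.

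The stretch before the start of Ermn is shown beside those of Cnp, a lineage gene that was not called, and of Ngfr, a gene whose profile over the libraries was close to that of Ermn. The sequences are RefSeq promoter windows (GRCm38.p6), 5′ to 3′ on the strand of the gene, ending before the first transcribed base in RefSeq and in GENCODE M21. They cover chr2:58052865-58053114 (minus strand) for Ermn, chr11:100574689-100574903 (plus strand) for Cnp and chr11:95587736-95587948 (minus strand) for Ngfr. Capitals mark matches, on either strand, to the E-box CANNTG, the kind of site bound by OLIG proteins, and to ACAAAG or ACAATG, core letters bound by SOX proteins.
Ermn: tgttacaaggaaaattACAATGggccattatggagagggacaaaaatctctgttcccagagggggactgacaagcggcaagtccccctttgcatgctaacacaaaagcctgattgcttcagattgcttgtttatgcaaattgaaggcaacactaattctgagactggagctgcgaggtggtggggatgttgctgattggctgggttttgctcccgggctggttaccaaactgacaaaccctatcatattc
Cnp: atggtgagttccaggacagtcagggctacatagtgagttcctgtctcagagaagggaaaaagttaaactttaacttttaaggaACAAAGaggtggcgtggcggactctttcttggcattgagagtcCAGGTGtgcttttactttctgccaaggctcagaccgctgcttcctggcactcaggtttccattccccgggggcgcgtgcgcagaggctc
Ngfr: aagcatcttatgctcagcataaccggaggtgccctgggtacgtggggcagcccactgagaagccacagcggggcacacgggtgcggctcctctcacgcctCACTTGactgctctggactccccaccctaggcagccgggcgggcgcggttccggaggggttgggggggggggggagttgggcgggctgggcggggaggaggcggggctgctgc
In the 250 bases before the RefSeq start, Ermn held 1 match to ACAATG, none to ACAAAG and none to CANNTG. Cnp held 1 match to ACAAAG and 1 to CANNTG, and Ngfr held 2 to CANNTG, of which 1 lies in the printed run. Over all 32851 RefSeq windows of this length, 66.2% held CANNTG, 16.5% ACAAAG and 10.7% ACAATG. The narrower E-box CATATG, which is palindromic and is contained in CANNTG, was found in 3.46% of windows and in none of these 3. Of the other members, Pdgfra held 1 CANNTG, Olig2 held 1 ACAATG and Cspg4 held none of these motifs. Windows for 5 of the 8 members were at hand, and Mbp, Olig1 and Sox10 had no entry. A match is a run of letters only, and binding was not measured.

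The transcription factors of the lineage were not called in Fezf2-/- against Fezf2+/+. Sox10, the HMG-box factor that drives myelin genes, was at 293, 281 and 265 in the Fezf2+/+ libraries. It was 363, 365, 334 and 359.65 in the Fezf2-/- libraries. It was 299.7 and 276 in the Fezf2-/-; Fezf2-EnR libraries. Every Fezf2-/- library stood above every other library, and the log2 fold change against Fezf2+/+ was 0.34 (95% interval 0.17 to 0.52, limma adjusted p = 0.11). Olig2, the basic helix-loop-helix factor that specifies the lineage, was at 588, 559 and 693 in Fezf2+/+ and at 746, 729, 707 and 605 in Fezf2-/-. The 2 groups overlapped, with a log2 fold change of 0.18 (95% interval -0.03 to 0.40, limma adjusted p = 0.544). The Fezf2-/-; Fezf2-EnR libraries held 734 and 772.5, above every Fezf2+/+ library. Its neighbour Olig1, a related factor, was at 1454, 1613 and 1728 in Fezf2+/+, at 2016, 1547, 1572 and 1662 in Fezf2-/- and at 1629.8 and 1511 in Fezf2-/-; Fezf2-EnR. Only library bc204 stood outside the Fezf2+/+ range of Olig1 among the Fezf2-/- libraries, and the log2 fold change was 0.08 (95% interval -0.13 to 0.30, limma adjusted p = 0.805).

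The surface proteins of the precursor gave a like picture. Pdgfra, the receptor for the growth factor PDGF-A, was at 2601, 2183 and 2047 in Fezf2+/+ and at 2432, 2637, 2912 and 2802 in Fezf2-/-. The lowest Fezf2-/- library lay inside the Fezf2+/+ range, with a log2 fold change of 0.25 (95% interval 0.05 to 0.44, limma adjusted p = 0.327). The Fezf2-/-; Fezf2-EnR libraries held 2491 and 2604, between the means of the other groups. Cspg4, which encodes the proteoglycan NG2, was at 211, 214 and 195 in Fezf2+/+ and at 223, 234, 241 and 275 in Fezf2-/-. All Fezf2-/- libraries were above all Fezf2+/+ libraries, with a log2 fold change of 0.23 (95% interval 0.02 to 0.45, limma adjusted p = 0.422). The Fezf2-/-; Fezf2-EnR libraries, at 237 and 247, lay within the Fezf2-/- range. Pericytes also express Cspg4. The 6 pericyte markers had log2 fold changes from 0.00 to 0.26 in the same comparison (median 0.09). None was called, as against 0.858% of all tested genes. The part of pericyte RNA in the values of Cspg4 was not tested.

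The myelin genes Mbp and Cnp were not called either. Mbp, which encodes myelin basic protein and, from an upstream start, the golli proteins that other cells also make, was at 1031, 1064 and 1037 in Fezf2+/+. It was at 969, 1045, 1005 and 1069 in Fezf2-/-. The ranges overlapped almost entirely, with a log2 fold change of -0.03 (95% interval -0.16 to 0.10, limma adjusted p = 0.888). Cnp, the phosphodiesterase of non-compact myelin, was at 472, 559 and 550.1 in Fezf2+/+ and at 611, 628, 574 and 589 in Fezf2-/-. All Fezf2-/- libraries were above all Fezf2+/+ libraries by a small margin, with a log2 fold change of 0.19 (95% interval -0.08 to 0.46, limma adjusted p = 0.628). Golli and classic Mbp transcripts are 1 entry in the table and were not separated.

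In all, 0 of the 7 lineage genes were called by limma in Fezf2-/- against Fezf2+/+, where 0.858% of all tested genes were called. At an unadjusted p under 0.05, 3 of the 7 (Sox10, Pdgfra and Cspg4) passed, against 10.8% of all tested genes. edgeR and DESeq2 on the recovered reads called 0 of the 7 as well, with the smallest DESeq2 adjusted p at 0.0595 (Sox10). The log2 fold change was above 0 in 6 of the 7, with a median of 0.19, where 8106 of the 16197 tested genes were above 0 and their median was 0.00. In 3 of the 7 (Sox10, Cspg4 and Cnp) all Fezf2-/- libraries were above all Fezf2+/+ libraries, and 6.53% of all tested genes were higher in this way. With litter as a block, the log2 fold change of Cnp was 0.08 (limma adjusted p = 0.884) and that of Olig1 was 0.01 (adjusted p = 0.978), while that of Sox10 was 0.29 (adjusted p = 0.228). In litter m1 alone, Olig2 stood at 0.32 (limma adjusted p = 0.105). Over the 7 genes the 95% intervals reached from -0.16 to 0.52, while the log2 difference of Ermn was -2.67.

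**Figure D2:**
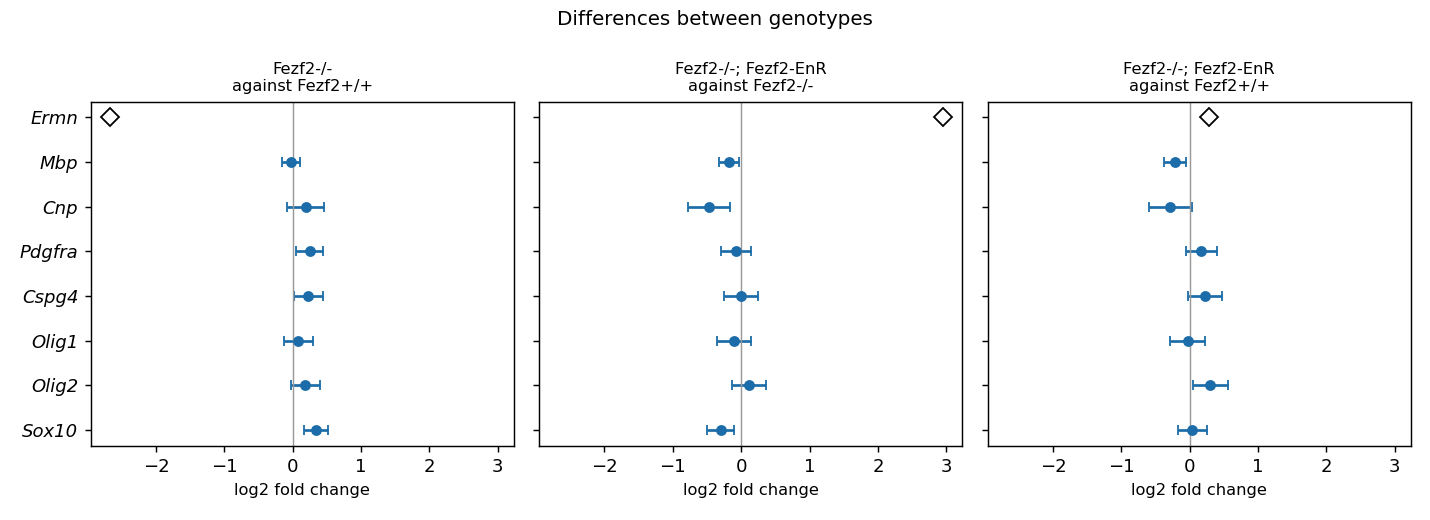
Log2 fold changes of log2(value + 1) for the 8 genes in the 3 comparisons, with limma's 95% intervals as bars for the 7 lineage genes and open diamonds without an interval for Ermn, which was selected on the comparison at the left. The lineage genes lie between -0.47 and 0.34, and Ermn lies at -2.67, 2.95 and 0.28.

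Adding Fezf2-EnR to the null moved none of the 7 lineage genes past the threshold. In Fezf2-/-; Fezf2-EnR against Fezf2-/-, limma called 0 of the 7, where 0.766% of all tested genes were called, and 3 of the 7 (Cnp, Sox10 and Mbp) passed an unadjusted p under 0.05, against 16.9% of all. Cnp, at 524 and 356, had a log2 difference of -0.47 (95% interval -0.78 to -0.17, limma adjusted p = 0.152). Its library bc209 was the lowest of all 9, and the adjusted p was 0.00925 when library bc208 was left out. Sox10 had a log2 fold change of -0.30 (95% interval -0.50 to -0.10, limma adjusted p = 0.166). Mbp, at 926 and 874, had a log2 fold change of -0.18 (95% interval -0.33 to -0.03, limma adjusted p = 0.224). In these 3 of the 7 genes both Fezf2-/-; Fezf2-EnR libraries lay below all Fezf2-/- libraries, as did those of 12.6% of all tested genes. The other 4 genes had log2 fold changes from -0.11 (Olig1) to 0.12 (Olig2), and with litter as a block these were -0.18 and 0.03.

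Against Fezf2+/+, the Fezf2-/-; Fezf2-EnR libraries showed 0 of the 7 genes called by limma, where 0.117% of all tested genes were called. Mbp (log2 fold change -0.21, limma adjusted p = 0.169) and Olig2 (0.30, limma adjusted p = 0.199) were the 2 with an unadjusted p under 0.05, against 19.3% of all tested genes. edgeR and DESeq2 called 0 of the 7 in both comparisons with Fezf2-/-; Fezf2-EnR. Cnp was past the threshold here too when library bc208 was left out (log2 fold change -0.56, limma adjusted p = 0.043), so the calls of Cnp turned on which of the 2 libraries was kept.

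Per kilobase of exon, the members differed widely in the Fezf2+/+ cortex. Olig1 stood first at 739 normalized reads per kilobase (673 to 799 over the 3 libraries), followed by Olig2 at 242 and Pdgfra at 227, whose ranges overlapped. Cnp followed at 145, Mbp at 123 and Sox10 at 91.6. Ermn ranked 7 at 38.5 (34.2 to 43.8), and Cspg4, at 17.3, was last. Apart from Olig2 and Pdgfra, no neighbours in this order overlapped. Among all tested genes with a length, 30.1% had a lower level per kilobase than Ermn in Fezf2+/+. In Fezf2-/- the mean of Ermn was 6.30 per kilobase, below that of Cspg4 at 20.4.

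The wider lineage was read from lists of known genes. Limma called 0.858% of all 16197 tested genes in Fezf2-/- against Fezf2+/+, and 8106 were above 0. At that share, few calls are to be looked for in lists this short. Of the 16 precursor genes, which hold 5 of the members, all were tested and 0 were called in Fezf2-/- against Fezf2+/+, with 15 above 0, 9 at an unadjusted p under 0.05 (10.8% of all tested genes) and a median log2 fold change of 0.23. The most abundant of the other 11 were Ptprz1, a receptor phosphatase (log2 fold change 0.34, limma adjusted p = 0.275), Tnr, tenascin-R (0.21, adjusted p = 0.46), and Bcan, the proteoglycan brevican (0.20, adjusted p = 0.564). Of the committed precursor genes, 11 of 12 were in the table and were tested, 0 were called, 9 were above 0 and the median was 0.25. Fyn, a kinase of early oligodendrocyte differentiation that neurons also express, had a log2 fold change of -0.02 (adjusted p = 0.916), Rras2, a small GTPase, of -0.12 (adjusted p = 0.577) and Gpr17, a receptor of the committed stage, of 0.39 (adjusted p = 0.363). Fitted in the 4 libraries of litter m1, Gpr17 was called, with a difference of 0.41 (limma adjusted p = 0.0466).

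Of the 28 myelin genes, 25 were in the table and 20 were tested. None of these 20, which hold Mbp and Cnp, was called, 17 were above 0, 5 had an unadjusted p under 0.05 (10.8% of all tested genes) and the median was 0.17. Limma called 0.858% of all 16197 tested genes in this comparison, Fezf2-/- against Fezf2+/+, and 8106 were above 0. The absence of a call among 20 genes therefore says little. In 7 of the 20 all Fezf2-/- libraries were above all Fezf2+/+ libraries, against 6.53% of all tested genes. Ndrg1 was the one myelin gene in which all Fezf2-/- libraries were below all Fezf2+/+ libraries, at 2491 to 2975 against 3285 to 3426 (log2 fold change -0.25, limma adjusted p = 0.158), and DESeq2 called it (adjusted p = 0.0369). Of all tested genes, 6.46% were lower in this way and DESeq2 called 1.94%. Sirt2, a deacetylase of myelinating cells, had a log2 fold change of 0.00 (adjusted p = 0.989) and Cd9, a tetraspanin, of 0.14 (adjusted p = 0.622). The genes of mature myelin were scarcely read at this age. Mog, the late surface glycoprotein, had at most 2 reads in any library, Hapln2 at most 2, Aspa at most 6 and Fa2h at most 16, and none of these 4 passed the filter. Per kilobase of exon, the mean normalized level in Fezf2+/+ was 38.5 for Ermn, 5.35 for Mag and 0.413 for Mog.

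None of the genes for ERM proteins and their partners was called. All 8 genes of that list were tested and 0 were called, with 5 above 0 and a median of 0.03 in Fezf2-/- against Fezf2+/+. Of all tested genes, 0.858% were called in this comparison. Rdx, which encodes radixin, lay between 2441 and 2746 in Fezf2+/+ and between 2517 and 2849 in Fezf2-/- (log2 fold change 0.06, limma adjusted p = 0.814). Nf2, which encodes the related protein merlin, had a log2 fold change of -0.03 (adjusted p = 0.853) and Ezr, which encodes ezrin, of 0.15 (adjusted p = 0.74). Cd44, a membrane receptor that binds ERM proteins, had the lowest value, with 519 to 575 in Fezf2+/+ and 96.4 to 509 in Fezf2-/- (log2 fold change -1.06, adjusted p = 0.43). The groups did not overlap for Cd44, as for 6.46% of all tested genes in the lower direction, and its Fezf2-/- libraries spread widely.

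In Fezf2-/-; Fezf2-EnR against Fezf2-/- the same lists had 0 genes called by limma, where 0.766% of all tested genes were called. Of the precursor genes 11 of 16 were below 0 (median -0.08), of the committed genes 9 of 11 (median -0.18) and of the myelin genes 17 of 20 (median -0.21), where 50.5% of all tested genes were above 0. Mag, a glycoprotein of the inner myelin layer, was at 27.1 to 33.8 in Fezf2-/- and at 16.4 and 24.9 with Fezf2-EnR, a log2 difference of -0.52 (limma adjusted p = 0.279). At an unadjusted p under 0.05, 6 precursor, 0 committed and 8 myelin genes passed, against 16.9% of all tested genes. Without library bc208, which leaves bc209 alone in its group, some listed genes had larger differences. The log2 fold change was then -0.75 for Cnp, -0.51 for Bcan and -1.37 for Myrf, a transcription factor of myelin genes. It was -1.79 for Bmp4, a signal made by committed precursors, and 0.37 for Rlbp1, which was higher. These values rested on bc209 alone. In Fezf2-/-; Fezf2-EnR against Fezf2+/+, 0 of the listed genes were called by limma, where 0.117% of all tested genes were called. The medians were 0.19, -0.10 and -0.04.

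**Figure D3:**
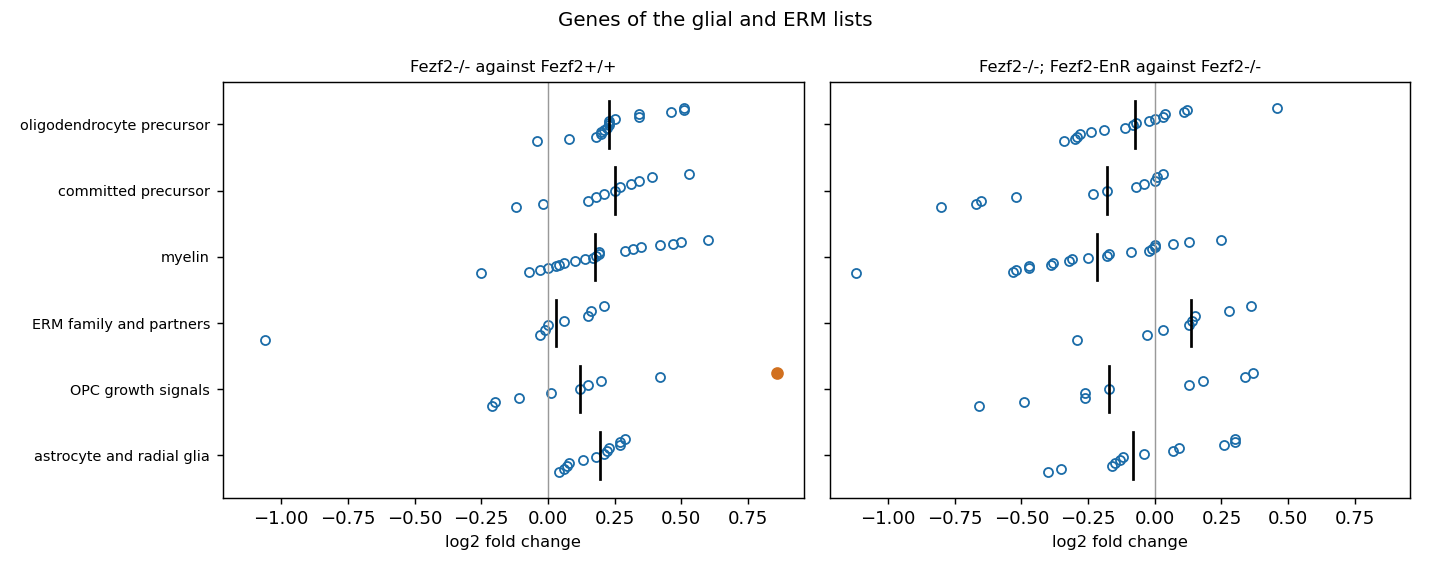
Log2 fold changes of the tested genes of 6 lists in Fezf2-/- against Fezf2+/+ (left) and Fezf2-/-; Fezf2-EnR against Fezf2-/- (right), with 1 circle for each gene, a black line at the list's median and filled circles for genes called by limma; Ermn is not shown. The 3 oligodendrocyte lists have medians of 0.23, 0.25 and 0.17 at the left and of -0.08, -0.18 and -0.21 at the right, and Igf1, at 0.86, is the filled circle.

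Signals to precursors and other cell types were read from further lists, in Fezf2-/- against Fezf2+/+ unless stated. Of all tested genes, 0.858% were called there. Of 9 growth signals for precursors 1 was called, Igf1, an insulin-like growth factor (225 to 299 in Fezf2+/+ and 420 to 543 in Fezf2-/-, log2 fold change 0.86, limma adjusted p = 0.0478). Pdgfa, the ligand of PDGFRA, had a log2 fold change of 0.20 (adjusted p = 0.562). Of the 6 genes of myelinated axon segments 0 were called (median 0.06). All 12 astrocyte and radial glia genes were above 0, with 0 called and a median of 0.20, and their summed level was 18270 to 19930 in Fezf2+/+, 19660 to 23130 in Fezf2-/- and 21950 to 23240 in Fezf2-/-; Fezf2-EnR. None of these 12 was at 0 in any library. The summed levels of Fezf2+/+ and Fezf2-/- overlapped, and the part of astroglial RNA in the values of the precursor lists was not tested.

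In the same comparison, 0.858% of all tested genes were called. None of the 7 microglia (median 0.14), 5 endothelial (0.08), 3 neural crest and Schwann (0.35) and 7 ventral progenitor and striatum genes (0.41) was called. Among 6 fibroblast genes Lum fell, from 17.9 to 22.8 in Fezf2+/+ to 1.04 to 4.36 in Fezf2-/- (log2 fold change -2.40, limma adjusted p = 0.0176), and the other 5 were above 0. Among 6 dorsal cortex neuron genes Emx1 fell (log2 fold change -0.44, limma adjusted p = 0.0296). Of 12 deep-layer and subplate neuron genes, listed with earlier results of these data known, 8 were called lower and 1, Nr4a2, higher. Their median was -1.49. In Fezf2-/-; Fezf2-EnR against Fezf2-/-, where 0.766% of all tested genes were called, 8 of the 12 were called higher with a median of 1.67.

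The genes whose profile over the 9 libraries was most like that of Ermn were sought among 12962 others averaging 50 or more, by the root mean square (RMS) difference between centred log2(value + 1) profiles. The 8 closest were Nxph3, a secreted ligand of neurexins (RMS difference 0.492), Ngfr, the low-affinity neurotrophin receptor (0.495), Fezf2 (0.576), Tcerg1l (0.597), Clic5, a chloride channel protein tied to ERM proteins (0.657), Hs3st4, a heparan sulfate sulfotransferase (0.687), Tle4, a corepressor (0.726), and Trhr, the receptor for thyrotropin-releasing hormone (0.777). Nxph3 fell from 1094 to 1188 in Fezf2+/+ to 145 to 195 in Fezf2-/-, and stood at 991 and 1021 in Fezf2-/-; Fezf2-EnR. Ngfr was at 337 to 390.3 in Fezf2+/+, at 50.2 to 73.1 in Fezf2-/- and at 297 and 417 in Fezf2-/-; Fezf2-EnR. Clic5 was at 93.6 to 116 in Fezf2+/+, at 23.1 to 39.0 in Fezf2-/- and at 115 and 126 in Fezf2-/-; Fezf2-EnR. Nxph3, Ngfr, Hs3st4 and Tle4 are also on the deep-layer list. That list was chosen with earlier results of these data known, so the overlap is no independent evidence on the cells that express Ermn.

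The lineage members ranked far behind. The closest was Olig2, with an RMS difference of 1.53 and rank 8052 of 12962, and the farthest was Cnp, with 1.70 and rank 12356. With any 1 library left out, or when only the 7 Fezf2+/+ and Fezf2-/- libraries were used, 7 or 8 of the 8 closest genes stayed, and the best rank of any lineage member ran from 5479 to 8740. This likeness uses the libraries on which Ermn was selected and is a description. Profiles were centred and not scaled, so a gene that did not fall lies far from Ermn whatever its lineage. The ranks of the lineage members, also with a library left out, therefore only restate that they did not fall. Like Ermn, 7 of the 8 were higher in bc209 than in bc208, and Trhr was lower (157 in bc208 and 66.65 in bc209). The 8 were picked for likeness over libraries that include these 2, so this is partly built in and is no support. The steps also differed in size, with Nxph3 at 991 and 1021 where Ermn was at 111 and 259. The share of all genes higher in bc209 was not computed.

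**Figure D4:**
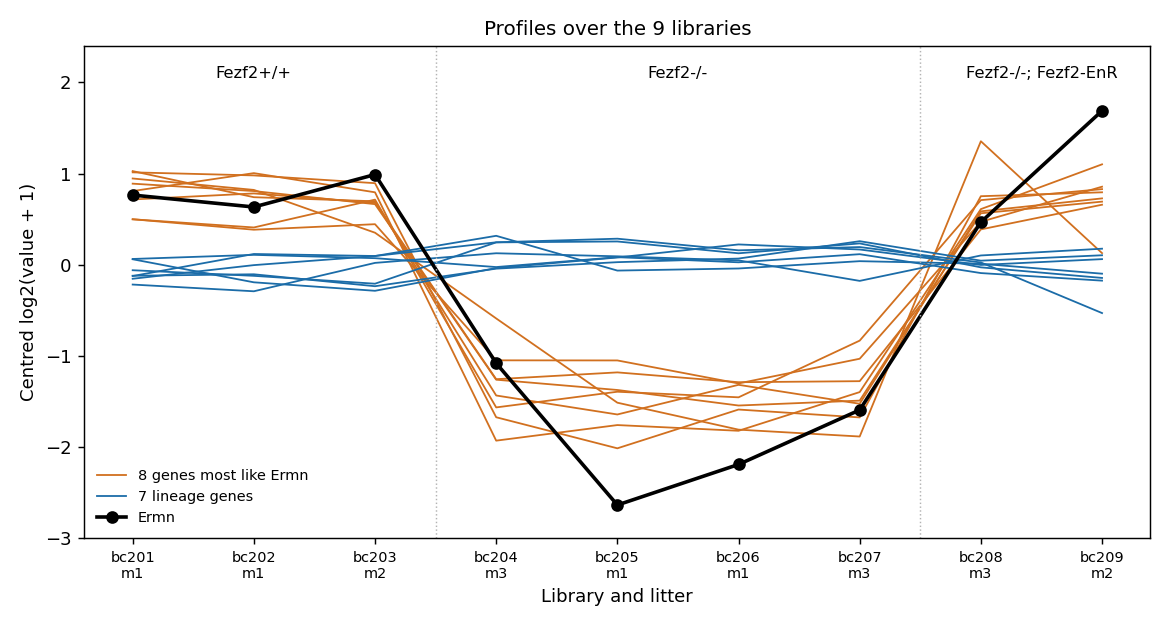
Log2(value + 1) in the 9 libraries, each gene centred on the mean of its 3 group means, for Ermn (black), the 8 genes with the smallest RMS difference from it (orange) and the 7 lineage genes (blue), with litters under the library names. Ermn and the 8 genes drop in the 4 Fezf2-/- libraries and return in bc208 and bc209, while the lineage genes stay near 0.

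On chromosome 2, none of the 4 nearest tested genes on each side of Ermn was called lower. Of all 16197 tested genes 139 were called in Fezf2-/- against Fezf2+/+, 56 of them lower, so few calls are to be looked for among 8 genes. Nr4a2, an orphan nuclear receptor that starts at position 57106830, was the only one called, and it was higher, at 3357 to 4796 in Fezf2-/- against 2156 to 2393 in Fezf2+/+ (log2 fold change 0.75, limma adjusted p = 0.0248). On the other side Acvr1c, which encodes the activin receptor ALK7, had a log2 fold change of -0.48 (164 to 287 in Fezf2+/+ and 126 to 179 in Fezf2-/-, limma adjusted p = 0.372), the most negative of the 8. Kcnj3 (0.11), Gpd2 (0.00), RP23-392D9.1 (-0.10), RP23-255J22.3 (-0.23), Acvr1 (0.05) and Upp2 (0.08) had adjusted p from 0.771 to 0.997. In Fezf2-/-; Fezf2-EnR against Fezf2-/- none of the 8 was called, against 0.766% of all tested genes. Nr4a2 was at -0.70 (limma adjusted p = 0.0649) and Acvr1c at 0.85 (adjusted p = 0.106).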

How the data were processed

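RNA of P0 cortices was sequenced in 9 libraries (poly(A) selection, Illumina TruSeq). The authors deposited 1 table of normalized signal for 24624 genes, in which read counts were divided by DESeq size factors and printed to 2 decimals. The submitters' processing notes name mm10, STAR, Bowtie and DESeq. The counting tool, annotation release and strand use are not given in the sources used here. Genotypes and litters came from the labels, and 0 columns lacked a sample.

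log2(value + 1) was fitted with limma 3.58.1 (eBayes with a trend, R 4.3.3) over 16197 genes with a mean of at least 10, all 9 libraries in one fit, 1 coefficient per genotype and no covariate, with Benjamini-Hochberg adjustment. Fold changes understate those of low genes. Whole reads were recovered by finding the value of 1 read in each library (100.0% of values from 20 to 200 were whole multiples within 0.1) and tested with edgeR 4.0.16 and DESeq2 1.42.0 as alternatives, where edgeR called 142 and DESeq2 315 genes in Fezf2-/- against Fezf2+/+. Each library held 18716575 to 25127623 reads, which makes genes of few reads imprecise. The fit was tested on simulated data with known changes. Tables were made with Python 3.11.15, pandas 2.3.3 and SciPy 1.17.1. Positions and exon lengths came from GENCODE M21 (24595 of 24624 identifiers matched), and promoter windows of 250 bases from RefSeq.

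The members and all gene lists were chosen with earlier results of these data known. Genes named are the 8 members, Fezf2, the 3 of highest mean that are no member and any called from each of 4 lists (precursor, committed, myelin, ERM), the 8 most like Ermn and the 4 nearest tested genes on either side. Named outside that rule, after their values were seen, are Mag, Mog, Hapln2, Aspa, Fa2h, Cd44, Igf1, Pdgfa, Lum, Emx1, Myrf, Bmp4, Rlbp1 and RP23-79J21.3. Alternatives were other pseudocounts (0.1 and 10), no filter and a mean of at least 50, TMM and median-ratio rescaling, the 2 groups alone, litter as a block, litter m1 alone, the count tests and each library left out. An exact permutation test over libraries is not reported, since its arrangements cross litters that hold 1 genotype of the pair compared. Some listed genes are not reported here.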

Additional observations from a re-analysis of the deposited data

Results flagged for a closer look

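Among the 4 Fezf2-/- libraries, 28 genes named in the text were examined for a library far from the other 3 (a gap over Dixon's limit as a share of the group's range), and 2 were marked. Chance marks about 1 in 20 groups. Bcan was at 1467.87 in library bc206 and between 1814.02 and 1834.94 in the other 3 (gap 0.943 of the range). Tle4 was at 820.46 in the same library and between 977.4 and 990.07 in the others (gap 0.925). None of the 8 members was marked.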

How the results depend on the processing

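The log2 difference of Ermn between Fezf2-/- and Fezf2+/+ kept its sign under 20 alternatives (-3.11 to -2.24), and that between Fezf2-/-; Fezf2-EnR and Fezf2-/- under 19 (2.34 to 3.56). Against Fezf2+/+, that of Fezf2-/-; Fezf2-EnR was -0.19 with litter as a block and ran from -0.33 (without bc209) to 0.89 (without bc208). In Fezf2-/- against Fezf2+/+, 139 genes were called, 221 with the 2 groups alone, 233 in litter m1 alone, 315 by DESeq2 and 66 (without bc201) to 217 (without bc209) with 1 library left out. No lineage member was called there under any alternative, and the listed precursor, committed and myelin genes gave 1 call in litter m1 alone (Gpr17) and 1 by DESeq2 (Ndrg1). In Fezf2-/-; Fezf2-EnR against Fezf2-/-, 124 genes were called, 67 with the 2 groups alone, 450 by DESeq2 and 21 (without bc209) to 1088 (without bc208) with 1 library left out. Against Fezf2+/+, 19 were called, 10 at a mean of at least 50, 12 with the 2 groups alone, 32 with litter as a block, 641 by DESeq2 and 8 (without bc209) to 491 (without bc208) with 1 library left out. Lineage members called ran from 0 to 1 in both, the 1 being Cnp without bc208. Listed genes called ran from 0 to 7 (without bc208) against Fezf2-/-, and against Fezf2+/+ from 0 to 2 (without bc208), with 1 without bc203 and 1 by DESeq2. Where bc208 or bc209 is left out, the lone library is assumed to vary like the other groups. Signs turned for differences near 0. Cspg4 in Fezf2-/-; Fezf2-EnR against Fezf2-/- was 0.02 with litter as a block and -0.04 to 0.06 with 1 library left out. Olig1 in Fezf2-/- against Fezf2+/+ ran from -0.00 to 0.14 in the same way. In Fezf2-/-; Fezf2-EnR against Fezf2+/+, Olig1 ran from -0.09 to 0.04 and Sox10 from -0.01 to 0.10. The cause was not tested. Genes of few reads, such as Mog, cannot be compared at this depth.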
